A study of Mus musculus with 18 samples.

Results

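The transcripts of 10 effector cytokines were followed in RNA-seq libraries of mouse CD8+ T cells: *Ifng*, *Tnf*, *Lta*, *Ltb*, *Il2*, *Il21*, *Il10*, *Csf1*, *Csf2* and *Lif*. These genes were chosen by symbol with earlier results of these libraries known, and *Lif* was chosen from its value in single peptide stimulated cells with ibrutinib, so for *Lif* only the comparison within repeat peptide stimulated cells was tested. Of the 10 genes, 7 passed the filter on low counts and belong to the 12255 genes tested among 45706 listed, whereas *Il2*, *Il21* and *Il10* did not pass. OT-I cells are CD8+ T cells with a transgenic T cell receptor for a peptide of ovalbumin, and all groups came from purified CD8+ T cells of OT-I mice kept with IL-15 and IL-7. Repeat peptide stimulated cells received 10 ng/ml peptide daily for 5 days and stayed with peptide until harvest, and single peptide stimulated cells received the same peptide for 48 hours before it was washed away. From day 5 to day 8 each kind of cell was treated with 1 µM ibrutinib, a covalent inhibitor of the kinase BTK, or with its solvent DMSO. On day 8 live cells were lysed directly from culture, so the values describe resting or peptide-exposed cultures and not cells that were stimulated again for a cytokine stain. The mouse age is not given in the sources used here.

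The 18 libraries comprise 4 of repeat peptide cells with DMSO, 5 of repeat peptide cells with ibrutinib, 5 of single peptide cells with DMSO and 4 of single peptide cells with ibrutinib. The genotype entry of the labels holds 6 different texts, which were read here as names of experiments and lettered A to F, although no label calls them that. Each of experiments A to D contributed all 4 groups, whereas E contributed 1 library of repeat peptide cells with ibrutinib and F contributed 1 of single peptide cells with DMSO. The strain entry reads wild type throughout, yet the genotype text of B, C, D and E mentions a btk knockout, that of A reads INHB-1 left over and that of F reads PKC igoni-2. The study describes its RNA-seq without btk deficient cells, so these texts were not used as genotypes. Total expected counts per library ranged from 23445922 to 51995372 with a median of 27420965. The 7 CD8 T cell markers (among them *Cd8a*, *Cd8b1* and *Cd3e*) summed to between 2989 and 4127 TPM in each library (TPM are transcripts scaled for gene length to the same total in every library), while *Cd4*, the B cell markers *Cd79a* and *Ms4a1* and the myeloid markers *Adgre1*, *Itgam* and *Csf1r* stayed under 1 TPM throughout. Other markers of those cell types were detected at up to 8.49 TPM (*Foxp3*), 7.08 (*Cd79b*), 6.02 (*Cd68*), 5.92 (*Lyz2*) and 2.92 (*Cd14*).

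Effector cytokines are the secreted or membrane-bound signals by which CD8+ T cells act on other cells. *Ifng* encodes interferon gamma, which activates macrophages and raises antigen presentation. *Tnf* and *Lta* encode the trimeric ligands TNF and lymphotoxin alpha, and *Ltb* encodes lymphotoxin beta, which anchors lymphotoxin alpha at the cell surface in a heterotrimer that signals through the lymphotoxin beta receptor. *Csf1* and *Csf2* encode the growth factors M-CSF and GM-CSF of macrophages and granulocytes, *Lif* encodes a cytokine of the IL-6 family, and *Il2*, *Il21* and *Il10* encode T cell interleukins. Transcription of many of these genes follows T cell receptor signals through NFAT, AP-1 and NF-κB. Several of the mRNAs are short-lived because AU-rich elements in their 3′ untranslated regions (3′UTRs) are bound by decay factors such as tristetraprolin (*Zfp36*).

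The sequence windows with the most AUUUA pentamers, the core of the AU-rich element, are printed here for 4 of the cytokines because *Ltb*, which was low after repeat peptide, has no such window. They are 30 bases long, from the GENCODE M21 transcripts of GRCm38, written as DNA with every ATTTA in capitals.
Csf2, chr11:54247329-54247358 (minus strand): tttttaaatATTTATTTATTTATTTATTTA
Tnf, chr17:35199679-35199708 (minus strand): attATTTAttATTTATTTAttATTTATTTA
Ifng, chr10:118445330-118445359 (plus strand): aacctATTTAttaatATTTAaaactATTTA
Lif, chr11:4272414-4272443 (plus strand): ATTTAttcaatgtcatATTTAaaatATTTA
The 3′UTR of *Csf2* holds 9 ATTTA in 317 bases, and 0.0435% of 11500 tested protein-coding genes have as many per kb. *Tnf* has 8 in 764 bases (0.765% of genes have as many per kb) and *Ifng* has 6 in 631 bases (1.0%). *Il2* has 7 in 581 bases and *Il10* has 6 in 706 bases. The density was lower in *Lta* with 3 in 572 bases, *Il21* with 9 in 2578 bases, *Lif* with 7 in 3180 bases and *Csf1* with 4 in 2111 bases. The median tested gene has 2 ATTTA and 1.3 per kb, and *Ltb* has 0 in a 3′UTR of 174 bases. A match of these letters is a description of the sequence and not a measurement of mRNA decay.

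Promoters of 4 cytokines are printed because 3 of them, *Ifng*, *Csf1* and *Csf2*, were high together after repeat peptide and the fourth, *Ltb*, was low. The sequences are the 250 bases before the RefSeq start, from GRCm38.p6, read 5′ to 3′ on the gene's strand. For *Csf2* and *Ltb* the RefSeq start differs from the GENCODE start. The *Csf2* window stops at 54249900, upstream of the GENCODE start at 54249667, so the bases between were not searched. The *Ltb* window runs past the GENCODE start at 35194439. Capitals mark 4 motifs searched on both strands: the NFAT core GGAAA, AP-1 as TGANTCA, NF-κB as the shortened form GGGNNTTTC and STAT as TTCNNNGAA.
Ifng, chr10:118440796-118441045 (plus strand): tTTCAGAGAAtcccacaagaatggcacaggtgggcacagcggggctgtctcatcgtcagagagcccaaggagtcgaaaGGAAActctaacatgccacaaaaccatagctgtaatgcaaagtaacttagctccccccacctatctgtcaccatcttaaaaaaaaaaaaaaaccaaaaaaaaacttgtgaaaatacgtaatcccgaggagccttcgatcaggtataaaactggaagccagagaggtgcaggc
Csf1, chr3:107760470-107760719 (minus strand): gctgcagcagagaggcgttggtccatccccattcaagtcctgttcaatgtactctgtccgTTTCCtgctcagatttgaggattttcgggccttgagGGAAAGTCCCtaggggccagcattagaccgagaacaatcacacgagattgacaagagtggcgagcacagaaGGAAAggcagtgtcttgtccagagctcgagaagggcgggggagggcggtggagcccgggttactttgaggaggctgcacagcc
Csf2, chr11:54249900-54250149 (minus strand): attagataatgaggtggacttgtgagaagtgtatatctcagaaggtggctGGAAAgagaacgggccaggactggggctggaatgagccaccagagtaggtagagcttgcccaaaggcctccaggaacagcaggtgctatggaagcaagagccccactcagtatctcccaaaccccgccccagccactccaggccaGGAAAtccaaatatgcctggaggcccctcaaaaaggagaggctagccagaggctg
Ltb, chr17:35194257-35194506 (plus strand): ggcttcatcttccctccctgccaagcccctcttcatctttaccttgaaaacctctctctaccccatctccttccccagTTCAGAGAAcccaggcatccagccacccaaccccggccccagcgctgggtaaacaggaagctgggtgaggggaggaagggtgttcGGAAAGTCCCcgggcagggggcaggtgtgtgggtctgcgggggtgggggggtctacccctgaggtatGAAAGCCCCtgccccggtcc
An entry was found for 9 of the 10 cytokines, with none for *Il10*. The NFAT core, short enough to occur often, was present in all 9 and in 55.6% of 32851 promoters. The NF-κB letters were found once in *Csf1* and at 2 places in *Ltb* (3.72% of all promoters hold them), and 1 match in each overlaps a GGAAA. STAT letters stood in *Ifng*, *Lta* and *Ltb* (7.02% of all promoters), and AP-1 letters only in *Lif* among the 9 (6.75%). No match says only that these letters are not in this window.

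The mixture of cytokine transcripts differed between the groups, both in amount and in its leading genes. *Ltb* made up most of the summed TPM of the 10 cytokines in every library, between 70.7% and 81.8% in repeat peptide cells with DMSO and between 98.3% and 98.9% in single peptide cells with ibrutinib. Without *Ltb*, the summed TPM was 92.4 to 169 (median 109) in repeat peptide cells with DMSO and 36.3 to 67.3 (median 53.1) with ibrutinib. For single peptide cells it was 21 to 37.04 (median 30.4) with DMSO and 11.1 to 15.8 (median 13.3) with ibrutinib. These 4 ranges overlapped only between repeat peptide cells with ibrutinib and single peptide cells with DMSO. The sums include *Lif*, which was chosen from its value in single peptide cells with ibrutinib. In single peptide cells *Lif* had 0.95 to 5.11 TPM with DMSO and 0.09 to 0.62 with ibrutinib. The ranges are therefore a description, and a difference between these sums was not tested. As the libraries are of bulk cells, fewer cells that make a cytokine and less RNA per cell cannot be told apart.

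**Figure D1:**
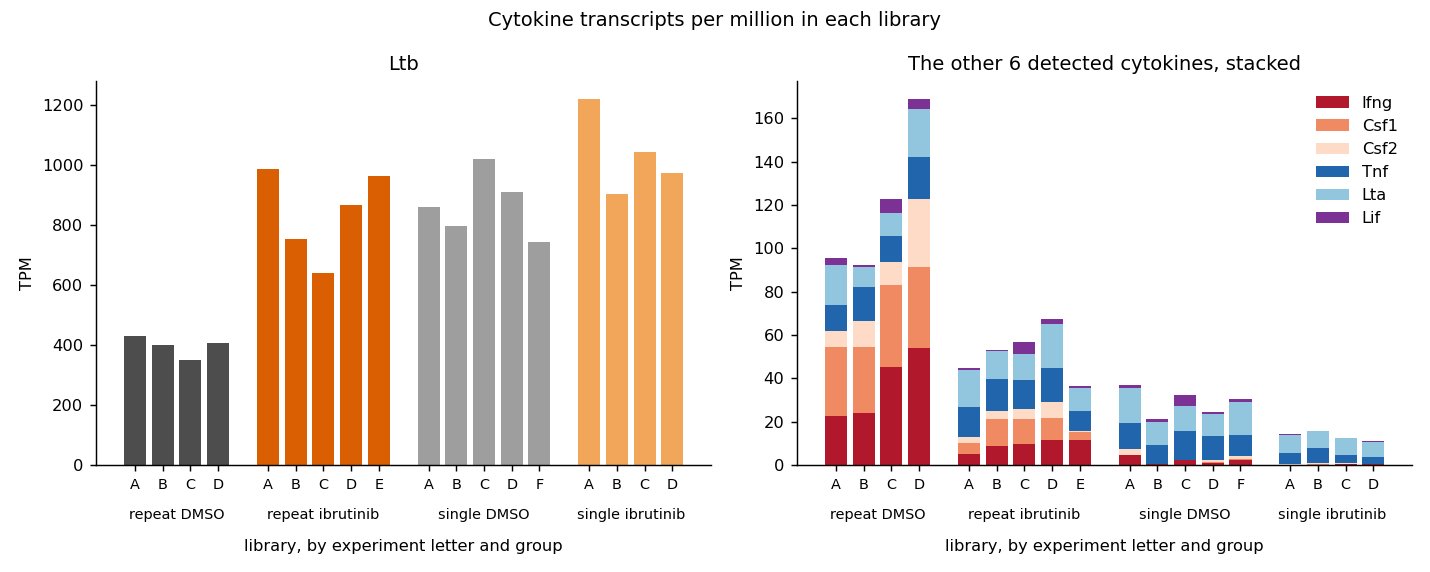
TPM (y axis, linear from 0) of Ltb on the left and of the other 6 detected cytokines stacked on the right, with 1 bar for each library, grouped by peptide and treatment and lettered by experiment. Without Ltb the bars of repeat peptide cells with DMSO reach 92.4 to 169 TPM and those of single peptide cells with ibrutinib 11.1 to 15.8 TPM.

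In repeat peptide cells with DMSO, on the TPM scale, which accounts for gene length, *Ltb* (396 ± 33.8, SD, n = 4) was followed by *Ifng* (36.5 ± 15.5) and *Csf1* (34.3 ± 3.92), which did not differ beyond their spread. *Csf2* (15.2 ± 10.7), *Tnf* (15.0 ± 3.61) and *Lta* (15.0 ± 6.29) came next at levels within each other's spread, and *Lif* was lower (3.76 ± 2.28). With ibrutinib the order after *Ltb* (842 ± 146, SD, n = 5) was *Lta* (14.5 ± 3.98) and *Tnf* (13.5 ± 2.51), then *Ifng* (9.35 ± 2.702) and *Csf1* (8.50 ± 4.08). With DMSO in single peptide cells, *Lta* (12.8 ± 2.73 TPM, SD, n = 5) and *Tnf* (10.8 ± 1.78) followed *Ltb* (866 ± 107), with *Ifng* at 2.05 ± 1.60 and *Csf1* at 0.328 ± 0.160. With ibrutinib in single peptide cells, *Lta* (7.69 ± 0.599 TPM, SD, n = 4) and *Tnf* (4.79 ± 1.59) were the only cytokines besides *Ltb* (1036 ± 135) with a mean above 1 TPM.

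**Figure D2:**
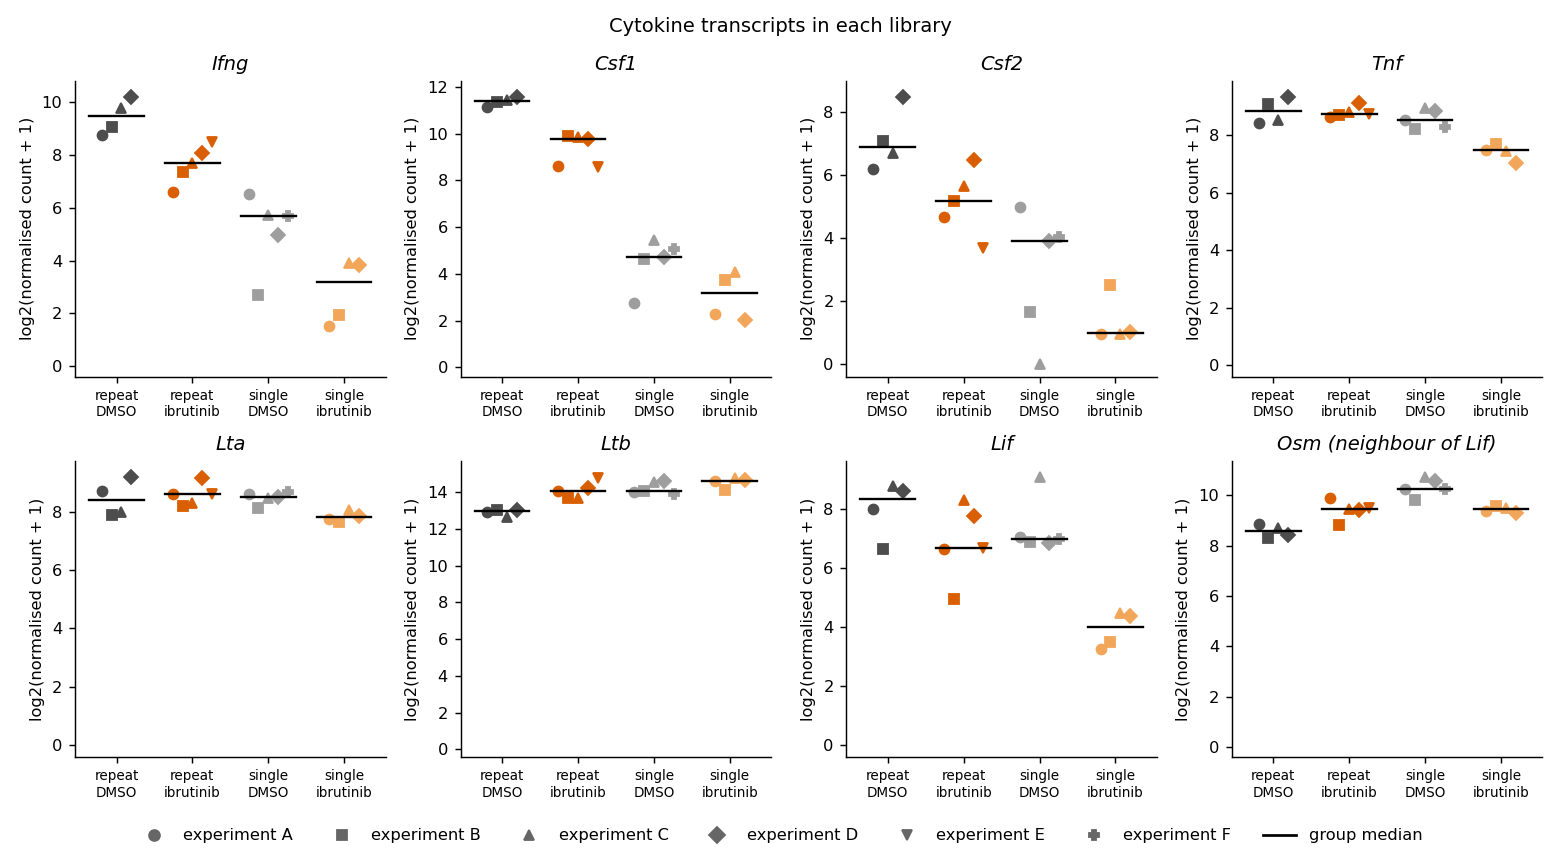
log2(normalised count + 1) (y axis) of the 7 detected cytokines and of Osm in each library, by group on the x axis, with a marker for each experiment and a black line at the group median. Ifng, Csf1 and Csf2 step down from repeat to single peptide cells, Ltb is lowest in repeat peptide cells with DMSO, and Tnf and Lta are lowest in single peptide cells with ibrutinib.

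The first group of cytokines, *Ifng*, *Csf1* and *Csf2*, was high in repeat peptide cells and lower with ibrutinib there. Levels are given as normalised counts, that is, expected counts divided by each library's effective size and multiplied by the mean size. Differences are log2 fold changes ± SE from edgeR's quasi-likelihood test, with p-values adjusted by Benjamini-Hochberg over all 12255 tested genes. This main fit treats the libraries as unpaired, with no term for the experiment. An alternative fit adds the experiment as a block, which takes the single libraries of E and F out of the comparisons. To be called, a gene needed an adjusted p under 0.05, a log2 fold change beyond 0.2 in either direction and 50 or more normalised counts on average over all 18 libraries. With ibrutinib in repeat peptide cells, 3 of the 10 cytokines were called, all from the 7 that were tested, against 5.92% of all tested genes (726). *Ltb* was called higher, a direction called in 4.01% of tested genes, and *Csf1* and *Ifng* were called lower, called in 1.92%.

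*Csf1* (ENSMUSG00000014599, chr3:107741048-107760469), the ligand that keeps macrophages alive, had 2236, 2578, 2752 and 3011 normalised counts in repeat peptide cells with DMSO (experiments A to D). With ibrutinib it had 389, 956, 921, 869 and 383 (experiments A to E). Every ibrutinib library was below every DMSO library, and A and E were the lowest. The log2 fold change was -1.91 ± 0.32 (3.75-fold lower, adjusted p = 0.00151, edgeR), and the cytokine was lower in 4 of 4 experiments. The call was kept in every alternative run, with log2 fold changes from -2.03 to -1.74.

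*Ifng* (ENSMUSG00000055170, chr10:118441046-118445892) had 429, 530, 892 and 1174 normalised counts in repeat peptide cells with DMSO (A to D). With ibrutinib it had 95.8, 162, 205, 273 and 361 (A to E). The groups did not overlap, and D was the highest of the DMSO libraries. *Ifng* fell by 1.78 ± 0.49 on the log2 scale (3.44-fold, adjusted p = 0.036, edgeR), and within experiments A to D the log2 difference was between -2.15 and -1.71. The call was lost without DMSO library C (log2 -1.70, adjusted p = 0.107) or D (-1.48, 0.155), without ibrutinib library A (-1.58, 0.091), B (-1.68, 0.0858) or C (-1.76, 0.0566), and without the filter on low counts (-1.76, 0.0978).

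*Csf2* (ENSMUSG00000018916, chr11:54247271-54249667), which encodes GM-CSF, had 72.1, 133, 103 and 355 normalised counts in repeat peptide cells with DMSO (A to D). With ibrutinib it had 24.3, 35.3, 49.2, 88.6 and 11.9 (A to E). It was lower in 4 of 4 experiments, but the groups overlapped through ibrutinib library D. The log2 fold change of -1.96 ± 0.68 was not called (adjusted p = 0.0935, edgeR), whereas DESeq2's Wald test (-1.98, adjusted p = 0.0459) and limma on log2(TPM + 1) (-1.74, adjusted p = 0.0285) called it. *Il3*, the neighbour of *Csf2* at a distance of 15.6 kb with no protein-coding gene between them, had 11 counts in library C and 6 in library D of repeat peptide cells with DMSO, at most 3 in any repeat peptide library with ibrutinib, and 0 in all single peptide libraries.

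In single peptide cells the same 3 cytokines had low counts, at most 91.2 normalised counts in any library. *Csf1* had 5.7, 23.8, 42.1, 25.0 and 32.0 normalised counts with DMSO (A, B, C, D and F) and 3.79, 12.2, 15.8 and 3.08 with ibrutinib (A to D). It was lower in 4 of 4 experiments with overlapping groups, and the log2 fold change of -1.51 ± 0.54 was not called (adjusted p = 0.171, edgeR). *Ifng* had 91.2, 5.41, 52.3, 30.6 and 51.1 with DMSO and 1.90, 2.81, 13.9 and 13.4 with ibrutinib, and B was the low library of the DMSO group. Its fall by 2.51 ± 0.68 on the log2 scale passed the threshold narrowly (adjusted p = 0.0494, edgeR). Its means in the single peptide groups, 46.1 with DMSO and 7.99 with ibrutinib, are both under 50, so it met the threshold on the mean count only through the repeat peptide libraries.

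This *Ifng* call rests on few counts, 33 in all over the 4 ibrutinib libraries, and was lost in 14 of the 18 fits that left out a library, with log2 fold changes from -2.95 to -2.10 over all 18. It was kept without repeat peptide DMSO library D, without repeat peptide ibrutinib library A or E, and without single peptide DMSO library B. It was also lost with limma on log2(TPM + 1) (-1.08, adjusted p = 0.195). *Csf2* had 30.8, 2.16, 0, 13.9 and 15.3 normalised counts in single peptide cells with DMSO and 0.948, 4.68, 0.927 and 1.03 with ibrutinib, the latter from 8 counts in all. Its log2 fold change of -2.63 ± 0.99 was not called (adjusted p = 0.206, edgeR), and it was lower in 2 of 4 experiments.

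Repeat against single peptide gave the largest differences of these cytokines. With DMSO, 4 of the 6 tested cytokines were called (*Lif* was left out, and the 3 interleukins were too low to test), against 47% of tested genes. The 3 called higher (22.8% of tested genes) were *Csf1* with a log2 fold change of 6.70 ± 0.41 (104-fold, adjusted p = 9.72e-10, edgeR), *Ifng* with 4.04 ± 0.55 (16.5-fold, 7.93e-06) and *Csf2* with 3.72 ± 0.74 (13.2-fold, 4.05e-04). The 1 called lower (24.2% of tested genes) was *Ltb*. With ibrutinib, 5 of the 6 were called, against 38.4% of tested genes, all of them higher (18.7%). *Csf1* was 6.30 ± 0.48 higher on the log2 scale (adjusted p = 1.91e-08, edgeR), *Ifng* 4.77 ± 0.67 (1.82e-05) and *Csf2* 4.39 ± 0.95 (0.00118), and *Tnf* and *Lta* completed the 5. The call of *Csf2* has a limit on its mean count, given in the next paragraph. The repeat peptide libraries did not overlap with the single peptide libraries for *Csf1*, *Ifng* and *Csf2*, with either treatment. How many of all tested genes lack such overlap was not counted in any comparison. Many genes of the lists below had no overlap with either treatment as well, so this was not particular to the 3 cytokines. Among them were *Il6st*, *Irf4*, *Ifngr2*, *Il2rb*, *Spp1*, *Tnfsf11*, *Prdm1* and *Bhlhe40*.

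The mean normalised count of *Csf2* over all libraries, 52.4, lies just above the threshold of 50. Both *Csf2* calls between repeat and single peptide were therefore lost when repeat peptide DMSO library B, C or D or repeat peptide ibrutinib library D was left out, with adjusted p-values (edgeR) of at most 0.00381 in those fits. The call with ibrutinib was also lost in a fit of only the compared groups (4.43, adjusted p = 0.000868, edgeR). The mean of *Csf2* was under 50 in both of these groups. It met the threshold on the mean count there only through the repeat peptide libraries with DMSO. The comparisons with DMSO and with ibrutinib share no library with each other, but each shares its libraries with the comparisons of treatment.

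**Figure D3:**
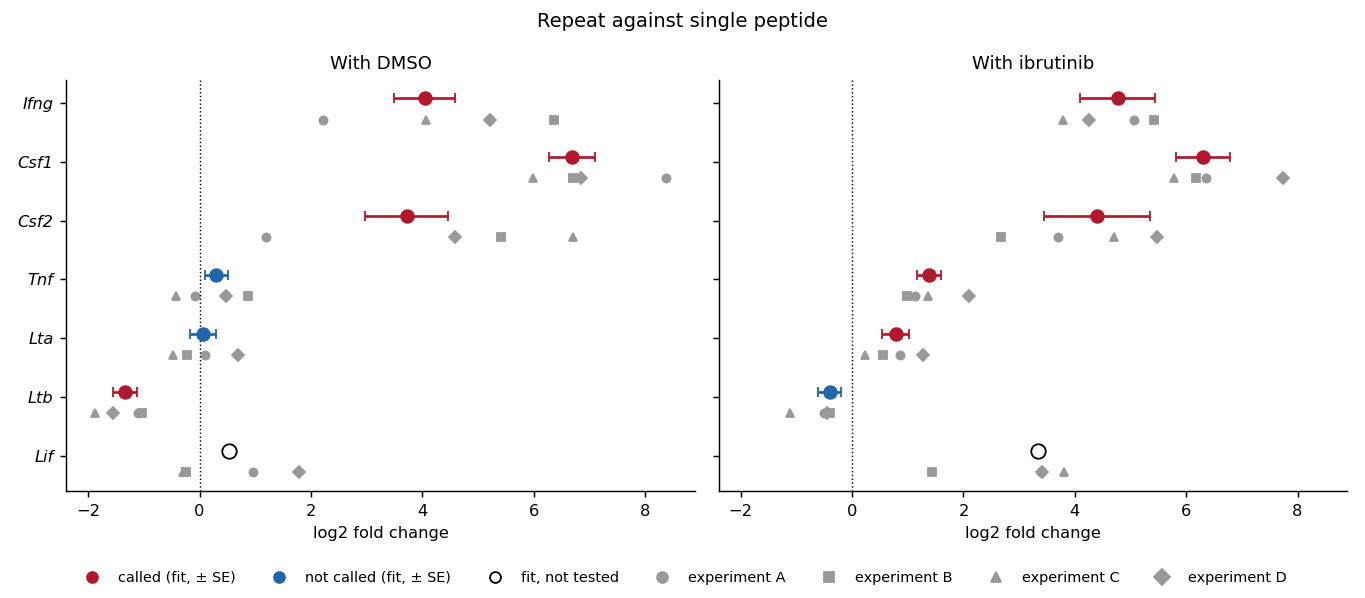
log2 fold change (x axis) of repeat against single peptide for 7 cytokines (y axis), with DMSO on the left and with ibrutinib on the right. Large points are the fit with bars of ± SE, red where called, the open point of Lif is not tested, and the small grey markers are the differences within experiments A to D. Csf1, Ifng and Csf2 lie at 3.72 or above in both panels, and Tnf and Lta are near 0 with DMSO and above 0 with ibrutinib.

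The TNF family members lie side by side on chromosome 17, with 3060 bases between *Ltb* (ENSMUSG00000024399, 35194439 to 35196320, plus strand) and *Tnf* (ENSMUSG00000024401, 35199381 to 35202007, minus strand) and 1157 bases between *Tnf* and *Lta* (ENSMUSG00000024402, 35203165 to 35205351, minus strand). The 3 genes had different patterns. *Tnf* and *Lta* had similar levels in repeat and single peptide cells with DMSO and were lowest in single peptide cells with ibrutinib. *Ltb* was lowest in repeat peptide cells with DMSO. *Ltb* was the most abundant of the 10 in TPM in each library.

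*Tnf* had 344, 541, 369 and 639 normalised counts in repeat peptide cells with DMSO (A to D) and 394, 412, 451, 556 and 428 with ibrutinib (A to E). The groups overlapped, *Tnf* was higher in 2 and lower in 2 of 4 experiments, and the log2 fold change was -0.077 ± 0.20 (adjusted p = 0.867, edgeR). Among single peptide libraries it had 364, 294, 495, 457 and 309 with DMSO (A, B, C, D and F) and 179, 208, 174 and 128 with ibrutinib (A to D). Every ibrutinib library was below every DMSO library here, and *Tnf* fell by 1.15 ± 0.21 on the log2 scale (2.22-fold, adjusted p = 0.00655, edgeR), in 4 of 4 experiments.

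*Tnf* and *Ifng* were the 2 of 6 tested cytokines called in single peptide cells, both of them lower, *Ifng* with the limit on its mean count given above. All tested genes were called in 3.04% of cases (373), and 2.69% were called lower. The *Tnf* call was kept in every alternative, with log2 fold changes from -1.25 to -1.04. Repeat against single peptide, *Tnf* did not differ detectably with DMSO (0.30 ± 0.20, adjusted p = 0.217, edgeR) and was called higher with ibrutinib (1.38 ± 0.21, 2.60-fold, 4.57e-05).

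*Lta* had 419, 238, 255 and 579 normalised counts in repeat peptide cells with DMSO (A to D) and 388, 294, 312, 565 and 389 with ibrutinib (A to E). These groups overlapped, and the log2 fold change was 0.071 ± 0.24 (adjusted p = 0.897, edgeR). Single peptide libraries had 393, 277, 353, 360 and 404 with DMSO and 212, 200, 264 and 233 with ibrutinib. The groups did not overlap and *Lta* was lower in 4 of 4 experiments, but the log2 fold change of -0.65 ± 0.24 was not called (adjusted p = 0.196, edgeR). With ibrutinib it was called higher in repeat than in single peptide cells (0.78 ± 0.24, 1.72-fold, adjusted p = 0.0141, edgeR), a call lost without repeat peptide ibrutinib library D (0.60, 0.052).

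*Ltb* had 7687, 8314, 6512 and 8361 normalised counts in repeat peptide cells with DMSO (A to D). With ibrutinib it had 17350, 13280, 13000, 19110 and 28290 (A to E). All ibrutinib libraries were above all DMSO libraries, E by the widest margin, and *Ltb* was higher in 4 of 4 experiments. The log2 fold change was 1.24 ± 0.22 (2.36-fold, adjusted p = 0.00188, edgeR), and the alternatives gave 1.01 to 1.34, all called. The counts of single peptide cells were 16480, 16970, 24020, 24440 and 15300 with DMSO (A, B, C, D and F) and 24640, 17600, 28110 and 26060 with ibrutinib, a log2 fold change of 0.31 ± 0.21 that was not called (adjusted p = 0.593, edgeR).

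Repeat against single peptide, *Ltb* was called lower with DMSO (-1.33 ± 0.22, 2.52-fold, adjusted p = 5.66e-05, edgeR), with no overlap between the groups. With ibrutinib it was lower in 4 of 4 experiments with overlapping groups (-0.41 ± 0.21, adjusted p = 0.128, edgeR). With the experiment as a block, this comparison was called (-0.62, adjusted p = 0.00196, edgeR), as it was without ibrutinib library E (-0.62, 0.0108). The block takes library E out of the comparison too, so these results are not separate. Over all tested genes the block called 5950 there against 4703 without it.

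**Figure D4:**
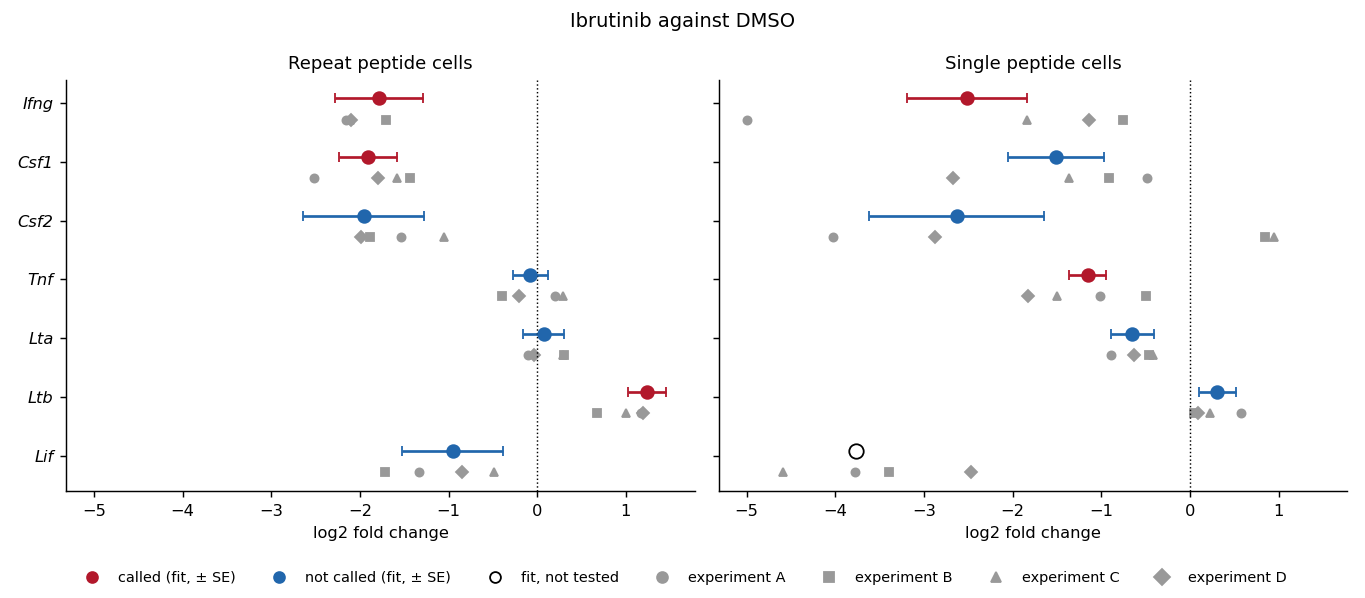
log2 fold change (x axis) of ibrutinib against DMSO for 7 cytokines (y axis) in repeat peptide cells on the left and single peptide cells on the right. Large points are the fit with bars of ± SE, red where called, the open point of Lif is not tested, and the small grey markers are the differences within experiments A to D. Ltb is at 1.24 in repeat peptide cells, and Tnf is at -0.077 in repeat and -1.15 in single peptide cells.

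Whether the ibrutinib effect differed between repeat and single peptide cells was tested as an interaction in the same fit. None of the 6 tested cytokines was called by edgeR, against 1.26% of tested genes (154), and 3 had an unadjusted p under 0.05. *Tnf* had the smallest p, with an ibrutinib effect 1.08 ± 0.29 higher in repeat than in single peptide cells on the log2 scale (adjusted p = 0.0829, edgeR). *Ltb* had a difference of 0.93 ± 0.30 (0.164) and *Lta* one of 0.72 ± 0.34 (0.423). With the experiment as a block, *Tnf* (1.15, adjusted p = 0.0279, edgeR) and *Ltb* (0.77, 0.0367) were both called. That fit called 679 of the 12255 tested genes. DESeq2 called 1, *Tnf* (1.09, adjusted p = 0.0155), with 341 genes called of the 27903 kept. Without repeat peptide DMSO library D, edgeR called *Tnf* as well (1.28, adjusted p = 0.0418), with 110 of 12393 genes called. *Csf1* (-0.40 ± 0.67), *Csf2* (0.67 ± 1.14) and *Ifng* (0.73 ± 0.83) had differences smaller than their SE. With limma on log2(TPM + 1), a scale that compresses low genes, *Csf1* (-1.82, adjusted p = 0.024) and *Ltb* (0.815, 0.0405) were called and *Tnf* was not (0.914, 0.211). Limma called 77 of 12255 genes there.

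*Lif* (ENSMUSG00000034394, chr11:4257557-4272514) had 252, 99.7, 437 and 392 normalised counts in repeat peptide cells with DMSO (A to D) and 99.5, 29.6, 312, 217 and 101 with ibrutinib (A to E). It was lower with ibrutinib in 4 of 4 experiments, while the groups overlapped. The log2 fold change of -0.95 ± 0.57 was not called (adjusted p = 0.351, edgeR), and with the experiment as a block it was -1.01 (adjusted p = 0.0561, edgeR). Experiments A to D ranked alike in both groups, with B lowest and C highest.

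*Lif* in single peptide cells had 130, 118, 535, 113 and 125 normalised counts with DMSO (A, B, C, D and F) and 8.53, 10.3, 21.3 and 19.5 with ibrutinib (A to D). This difference chose the gene and is given without a test. Library C stood above the other single peptide DMSO libraries, and the log2 difference within experiments was between -4.59 and -2.47.

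*Osm* (ENSMUSG00000058755), a cytokine of the same family whose gene lies 16.5 kb from *Lif* with no protein-coding gene between them, had another pattern. It had 462, 313, 420 and 347 normalised counts in repeat peptide cells with DMSO (A to D) and 941, 458, 699, 691 and 730 with ibrutinib (A to E). The single peptide libraries had 1217, 903, 1681, 1534 and 1223 with DMSO and 670, 761, 719 and 629 with ibrutinib. *Osm* was thus called higher with ibrutinib in repeat peptide cells (0.87 ± 0.19, adjusted p = 0.0096, edgeR) and lower in single peptide cells (-0.92 ± 0.19, 0.0116), each in 4 of 4 experiments. The interaction was called as well (1.79 ± 0.27, adjusted p = 0.00166, edgeR). The ibrutinib libraries of both kinds of cell lay in overlapping ranges.

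The interleukins were at or near 0. *Il2* (ENSMUSG00000027720, chr3:37120523-37125959) had at most 4.01 expected counts in any library and was at 0 in all single peptide libraries with ibrutinib. *Il21* (ENSMUSG00000027718, chr3:37222759-37232636), which lies 96.8 kb from *Il2*, had at most 1 count in any library. *Il10* (ENSMUSG00000016529, chr1:131019845-131024974) had 1 count in repeat peptide ibrutinib library A and 0 in all other libraries, where a count of 0 allows up to 3 counts (counting error only). A difference between groups was not detectable at this depth for these 3 genes. *Il22*, 231 kb from *Ifng*, had 3 counts in single peptide DMSO library D and 0 elsewhere.

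The receptors of these cytokines were described from a list of 16 genes, of which 13 were tested. With ibrutinib in repeat peptide cells, 4 were called (5.92% of all tested genes were), 2 higher and 2 lower, with a median log2 fold change of 0.19 against 0.004 over all tested genes. The IL-2 receptor chains *Il2ra* (-0.96 ± 0.20, adjusted p = 0.00684, edgeR) and *Il2rb* (-0.65 ± 0.11, 0.00183) fell, and the interferon gamma receptor chain *Ifngr2* (1.15 ± 0.26, 0.0126) and the IL-10 receptor chain *Il10ra* (0.83 ± 0.18, 0.0101) rose. With the experiment as a block 7 were called, with *Ifngr1* (0.47, adjusted p = 0.00101), *Tnfrsf1a* (0.46, 0.0166) and *Il2rg* (0.28, 0.0341) added among those that rose. The block raised the calls over all 12255 tested genes from 726 to 1694. For single peptide cells edgeR called 0 of 13, with 0 at an unadjusted p under 0.05, and DESeq2 also called 0. The median there was -0.11 against 0.01 over all tested genes.

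Between repeat and single peptide cells with DMSO, a comparison in which 47% of all tested genes were called, 11 of the 13 receptor genes were called, 4 higher and 7 lower. *Ifngr2* (-2.46 ± 0.27, adjusted p = 7.76e-07, edgeR), the shared IL-6 family chain *Il6st* (-2.01 ± 0.15, 7.8e-09) and *Il10ra* (-1.41 ± 0.19, 6.22e-06) were lower. *Csf2ra* was higher (1.58 ± 0.31, 3.42e-04), as were *Il2rb* (1.45 ± 0.11, 1.19e-08) and *Il2ra* (1.21 ± 0.20, 6.96e-05). *Csf1r*, *Ltbr* and *Lifr*, the receptors for *Csf1*, lymphotoxin and *Lif*, did not pass the filter on low counts.

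**Figure D5:**
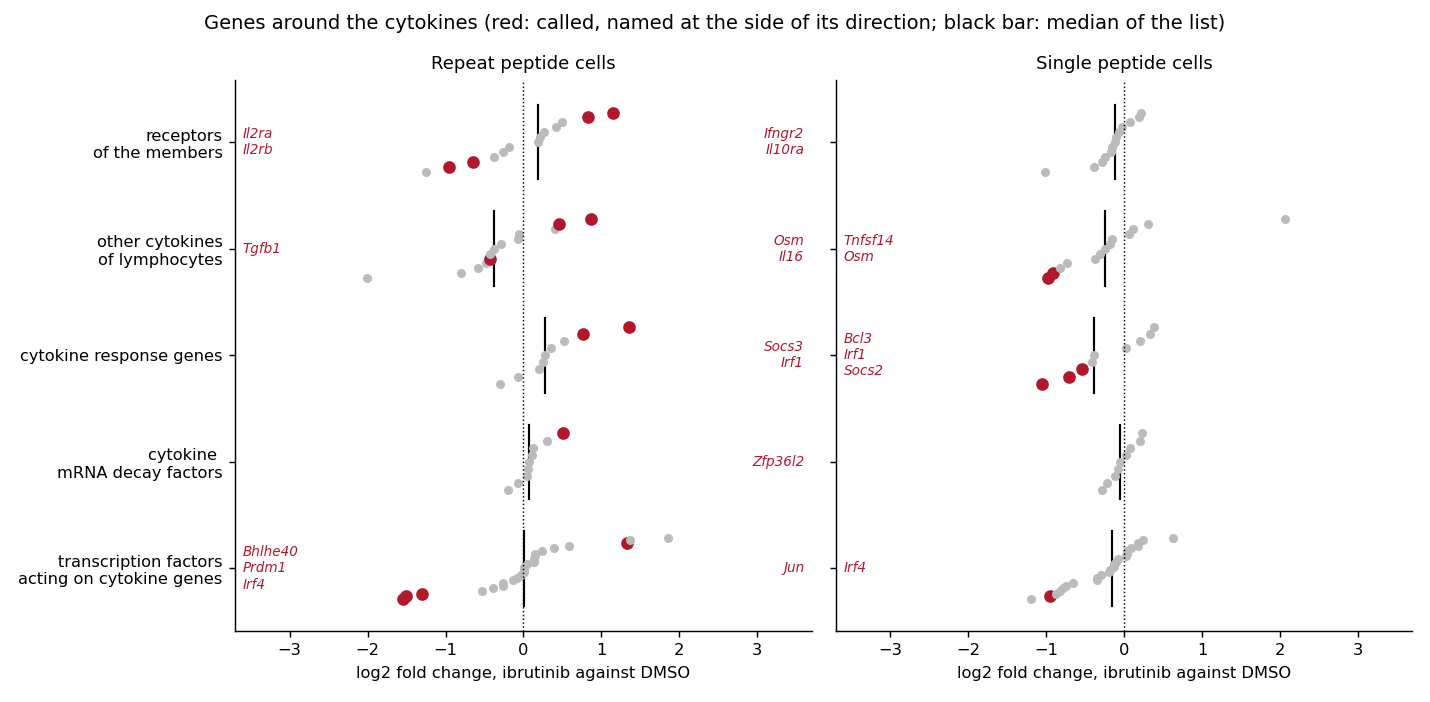
log2 fold change (x axis) of ibrutinib against DMSO for the tested genes of 5 lists (y axis) in repeat peptide cells on the left and single peptide cells on the right. Each point is a gene, red and named at the side of its direction where called, and the black bar is the median of the list. In cytokine response genes the median is 0.27 in repeat and -0.39 in single peptide cells.

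Genes that respond to cytokines, of which 9 are reported, with feedback inhibitors of cytokine and NF-κB signals, included calls of opposite direction in the 2 kinds of cell. In repeat peptide cells 2 were called, both higher with ibrutinib (4.01% of all tested genes were), namely the feedback inhibitor *Socs3* (1.35 ± 0.26, adjusted p = 0.0043, edgeR) and the interferon-induced factor *Irf1* (0.77 ± 0.16, 0.00799). Single peptide cells had 3 calls, all lower with ibrutinib (2.69% of all tested genes were): *Bcl3* (-1.05 ± 0.23, adjusted p = 0.0161, edgeR), *Irf1* (-0.70 ± 0.16, 0.0236) and *Socs2* (-0.55 ± 0.14, 0.0366). The medians were 0.27 and -0.39, against 0.004 and 0.01 over all tested genes. The interaction was called for 2 of the 9 and for 1.26% of all tested genes, namely *Irf1* (1.47 ± 0.23, adjusted p = 0.00213, edgeR) and *Bcl3* (1.41 ± 0.32, 0.0328). With the experiment as a block 4 were called, *Socs1* (0.91, adjusted p = 0.0316) and *Socs3* (0.83, 0.0369) being added. The block raised the interaction calls over all tested genes from 154 to 679.

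Of the transcription factors that act on cytokine genes, 24 of 25 were tested. With ibrutinib in repeat peptide cells 3 were called lower (1.92% of all tested genes) and 1 higher (4.01%), with a median log2 fold change of 0.01. The factors that fell were *Bhlhe40* (-1.55 ± 0.30, adjusted p = 0.00397, edgeR), *Prdm1*, which encodes Blimp-1 (-1.50 ± 0.35, 0.013), and *Irf4*, which is induced by T cell receptor signals (-1.30 ± 0.19, 3.73e-04). The AP-1 subunit *Jun* rose (1.32 ± 0.31, 0.0147). With the experiment as a block 6 were called, 3 higher and 3 lower, *Nfatc2* (0.33, adjusted p = 0.013, edgeR) and *Maf* (2.035, 0.0212) being added. DESeq2's Wald test also called 6, adding *Eomes* (1.37, adjusted p = 0.0445) and *Maf* (1.83, 0.0438), both higher. *Eomes* was not called in the main fit (1.37 ± 0.45, adjusted p = 0.0743, edgeR). Over all tested genes the calls were 726 in the main fit, 1694 with the block and 1098 with DESeq2. In single peptide cells only *Irf4* among the 24 was called (-0.95 ± 0.19, adjusted p = 0.0107, edgeR), against 3.04% of all tested genes, with a median of -0.15. With the experiment as a block 3 were called there, *Tbx21* (-0.64, adjusted p = 0.00136) and *Runx3* (-0.33, 0.0237) being added. Over all tested genes the block raised the calls in single peptide cells from 373 to 1114.

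Between repeat and single peptide cells with DMSO, 16 of the 24 transcription factors were called, 9 higher (22.8% of all tested genes) and 7 lower (24.2%). *Bhlhe40* (3.01 ± 0.31, adjusted p = 3.86e-07, edgeR) and *Prdm1* (2.55 ± 0.36, 1.32e-05) were among those higher, and *Maf* (-3.94 ± 0.74, 2.3e-04) and *Eomes* (-3.64 ± 0.48, 6.87e-06) among those lower. The interaction was called for *Eomes* (2.56 ± 0.62, adjusted p = 0.0468, edgeR), a call that was lost with the experiment as a block (2.25, 0.0812). With that block 4 others of the list were called, *Jun* (1.84, adjusted p = 0.00332), *Tbx21* (0.66, 0.02), *Runx3* (0.47, 0.0328) and *Nfatc2* (0.42, 0.043). Over all tested genes the interaction was called for 679 with the block and for 154 without it.

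All 9 cytokine mRNA decay factors were tested. *Zfp36l2*, which binds AU-rich elements, was the only call with ibrutinib in repeat peptide cells (0.51 ± 0.14, adjusted p = 0.0308, edgeR), against 5.92% of all tested genes. For single peptide cells edgeR called 0 of 9, with 1 at an unadjusted p under 0.05, and DESeq2 called 0, but with the experiment as a block *N4bp1* was called (-0.29, adjusted p = 0.0261, edgeR). With the block 1114 of the 12255 tested genes were called there. Between repeat and single peptide cells with DMSO 6 were called (47% of all tested genes), 5 of them lower (24.2%), with a median of -0.44 against -0.002 over all tested genes. *Zfp36* (-1.03 ± 0.39, adjusted p = 0.0322, edgeR), *Zfp36l2* (-0.99 ± 0.14, 1.11e-05) and the ribonuclease *N4bp1* (-0.83 ± 0.11, 4.88e-06) led those that were lower, followed by *Rc3h1* (-0.44 ± 0.17, 0.0362).

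Of 25 other cytokines of lymphocytes, 13 were tested. With 5.92% of all tested genes called in repeat peptide cells and 3.04% in single peptide cells, 3 and 2 of the 13 were called. Besides *Osm*, ibrutinib in repeat peptide cells raised *Il16* (0.46 ± 0.11, adjusted p = 0.0181, edgeR) and lowered *Tgfb1* (-0.43 ± 0.12, 0.0394), and the block added *Mif* (-0.48, adjusted p = 0.00824) and *Tnfsf8* (0.39, 0.00384). In single peptide cells the TNF family ligand *Tnfsf14* fell (-0.98 ± 0.18, adjusted p = 0.00614, edgeR) with *Osm*, and the block added *Il16* (0.26, adjusted p = 0.0467), *Tgfb1* (-0.33, 0.0341) and *Mif* (-0.44, 0.0167). Of the 12255 tested genes the block called 1694 in repeat and 1114 in single peptide cells. Between repeat and single peptide cells with DMSO 11 of the 13 were called, 8 higher (22.8% of all tested genes) and 3 lower (24.2%). *Spp1* (8.03 ± 0.68, adjusted p = 3.39e-08, edgeR), *Ebi3* (6.46 ± 0.74, 1.22e-06), *Tnfsf11* (4.25 ± 0.22, 8.82e-11) and *Fasl* (1.85 ± 0.34, 1.89e-04) were those with the largest differences, all higher in repeat peptide cells. The mean normalised count of *Ebi3* over all libraries, 50.46, met the threshold of 50 only through the repeat peptide libraries. Its call was lost with DESeq2 (6.59, adjusted p = 7.78e-17, Wald test), where only the mean count could fail.

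Genes with the most similar pattern were found by Pearson's correlation of log2 CPM over the 18 libraries, which fall into 4 groups, so the values largely follow the group means. *Csf1* was closest to *Adap1* (0.992), *Fmnl3* (0.988) and *Litaf* (0.986). *Ifng* was closest to the costimulatory receptor gene *Tnfrsf9* (0.959), *Cep89* (0.957) and the granzyme gene *Gzmb* (0.956), and *Csf2* to *Cul2* (0.945), *Camk4* (0.933) and *Tnfsf9* (0.931). *Ltb* was closest to *Glipr2* (0.961), *Capn1* (0.938) and *Pheta1* (0.937). For *Tnf* the closest were *Hist1h2ai* (0.915), *Vim* (0.904) and *Magohb* (0.898), and for *Lif* *Casp8* (0.902), *Nampt* (0.889) and *Hnrnpa1* (0.866). *Lta* had the least similar neighbours, *Rnf19b* (0.749), *Scrn2* (0.746) and *Ctdspl* (0.737). The histone gene belongs to a family of near-identical copies, between which reads may be shared.

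Markers of other cell types were summed to see whether they moved with these results. The 3 NK cell markers summed to 2.64 to 11.6 TPM in repeat peptide cells with DMSO, 2.69 to 25.7 with ibrutinib, 0.59 to 3.67 in single peptide cells with DMSO and 1.4 to 2.73 with ibrutinib. *Klrb1c* reached 11.3, 25.2, 1.94 and 2.63 TPM in the same order, and *Ncr1* and *Klra8* reached 1.16 and 1.04 in single peptide cells with DMSO. The 6 myeloid markers summed to 3.86 to 7.04, 4.09 to 6.91, 1.05 to 9.18 and 0.56 to 6.17 TPM in the same order, with *Csf1r* at most 0.03 TPM. The 2 gamma delta T cell markers summed to 21.6 to 41.4, 25.6 to 74.6, 74.7 to 130 and 75.9 to 115 TPM, so they were lowest where *Csf1* and *Ifng* were highest and where *Ltb* was lowest. The part of these transcripts in the cytokine results was not tested. The 3 reported B cell markers summed to at most 7.08 TPM, the 4 dendritic cell markers to at most 4.09 TPM and the 2 markers of CD4 and regulatory T cells to at most 8.49 TPM in any library.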

How the data were processed

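RNA-seq was performed on 18 cultures of OT-I CD8+ T cells in 4 groups, taken from the sample labels. Trimmed reads were mapped by the authors to GRCm38 with STAR inside RSEM 1.3.1. The deposited expected counts are RSEM's estimated counts of reads per gene, and the deposited TPM values were scaled by the authors to 1 total per library for gene length.

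After rounding, the 27903 genes that GENCODE M21 lists as protein-coding or lncRNA were kept (98.5% of counts). R 4.3.3 was used with edgeR 4.0.16 (filterByExpr, TMM, robust glmQLFit and glmQLFTest, a single fit of the 4 groups), DESeq2 1.42.0 and limma 3.58.1. The SE is the log2 fold change over the square root of F. Members and gene lists were chosen with earlier results of these data known. Named genes were the 10 members, their genomic neighbours, up to 4 called genes per list and comparison with the largest change, and the 3 genes most correlated with each member (prior count 2). List genes whose call changed with the block or with DESeq2 were chosen after their values were seen. A gene of the cytokine response list and a cell type marker are not reported here.

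Same-experiment libraries of different groups had correlated deviations from the group means in all 24 pairs (0.16 to 0.494), against a median of -0.0765 over the other 97 pairs. The genotype text of the labels, read as an experiment, was therefore taken to pair libraries in the within-experiment differences and in the block. The main edgeR fit was unpaired and held no term for the experiment. In simulated data of the repeat peptide comparison with 12101 genes, 89% of 2-fold and 97% of 4-fold changes were called, as were 6 unchanged genes. The 200 changed genes all had a mean of at least 50 normalised counts. Apart from these changes each gene had the same mean in all groups, and no difference between experiments was simulated. The shares therefore do not cover genes with lower counts. Alternatives were RLE size factors, no count filter, other thresholds, all gene types, only the compared groups, the block, DESeq2, limma on log2(TPM + 1) and each library left out. Libraries of a group differed beyond sampling noise. At this depth the spread between cultures limits most values, and counting error those of a few counts. Whether libraries of a group came from separate mice is not given in the sources used here, so p-values rest on the spread between these cultures. In the main fit they treat libraries of the same experiment as independent. Differences between experiments are then part of that spread.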

Additional observations from a re-analysis of the deposited data

Results flagged for a closer look

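Libraries far from the rest of their group were looked for in 32 sets (8 genes in 4 groups) by the gap to the nearest library, and chance flags about 1 in 20 sets. Of the 32 sets, 2 were flagged. The single peptide DMSO library of experiment C had 535 normalised counts of *Lif*, far above the other 4 libraries of its group. *Lif* was chosen from single peptide libraries, so this flag is a description and not a test. The single peptide ibrutinib library of experiment B had 4.68 normalised counts of *Csf2*, from 5 reads, far above the other 3 libraries of its group.

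The ibrutinib effect differed between repeat and single peptide cells by edgeR's interaction test for *Osm* (log2 difference 1.79, adjusted p = 0.00166), *Irf1* (1.47, 0.00213), *Bcl3* (1.41, 0.0328) and *Eomes* (2.56, 0.0468). None of these is among the 10 cytokines. With the experiment as a block *Eomes* was not called (2.25, adjusted p = 0.0812, edgeR), while *Tnf* (1.15, 0.0279) and *Ltb* (0.77, 0.0367) were. The block called 679 of all tested genes, against 154 without it.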

How the results depend on the processing

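With ibrutinib in single peptide cells, the number of cytokines called was 1 (*Tnf*) without the filter on low counts, with only the compared groups and with all gene types, 4 with DESeq2 (*Csf1*, *Csf2*, *Ifng* and *Tnf*, the first 3 with means under 50 in single peptide cells), and 1 to 2 with a library left out. In repeat peptide cells it was 2 to 3 with a library left out. For repeat against single peptide it was 3 to 4 with DMSO and 3 to 6 with ibrutinib, the lowest, 3, without repeat peptide ibrutinib library D. For the interaction it was 2 with the experiment as a replicate block (*Ltb* and *Tnf*), 1 with DESeq2 (*Tnf*), and 0 to 1 with a library left out. Over all tested genes the interaction calls were 679 with the block and 154 without it. The block changed no other count of called cytokines by over 1.5 times, and made *Ltb* a call between repeat and single peptide cells with ibrutinib (-0.62). Directions turned only for values that were not called. With a library left out, ibrutinib in repeat peptide cells gave *Lta* from -0.11 to 0.38 and *Tnf* from -0.20 to 0.11, repeat against single peptide with DMSO gave *Lta* from -0.23 to 0.23, and the interaction gave *Csf1* from -0.64 to 0.071, the latter without single peptide ibrutinib library C. On the log2(TPM + 1) scale, which compresses low genes, the interaction was -1.08 for *Csf2* and -0.73 for *Ifng*, limma called *Csf1* (-1.82) and *Ltb* (0.815) there, called *Csf2* with ibrutinib in repeat peptide cells (-1.74) and lost *Ifng* in single peptide cells (-1.08). Depth limits *Csf2*, *Ifng* and *Csf1* in single peptide cells and all values of *Il2*, *Il21* and *Il10*.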
